A study of Xenopus laevis with 18 samples.

Results

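The transcripts described here are the RNAs of the vegetal determinants Vg1 (gdf1), VegT (vegt), Wnt11b (wnt11b) and Trim36 (trim36) of Xenopus laevis. They were chosen by symbol, with the suffix L or S of the homeolog (the paired gene copies of this allotetraploid frog) removed, which gave 10 of the 51026 named transcripts in the deposited tables. These were 5 gene models named gdf1.S and 1 each of vegt.L, vegt.S, wnt11b.L, trim36.L and trim36.S. The oocyte groups were defolliculated stage VI oocytes, full-grown cells arrested in meiosis, held in culture medium at 18 °C. The egg groups were such oocytes cultured with 2 µM progesterone to mature, labelled both as mature eggs and by germinal vesicle breakdown, the dissolution of the nucleus. Each library held RNA of the cytosol, the endoplasmic reticulum (ER) or the pellet of 4 pooled cells, and the 3 fractions of 2 stages made 6 groups of 3 libraries. The series design calls the replicates biological. The labels do not say what the pellet contains, nor which frog or culture a replicate came from. The spread behind each p-value is therefore that between libraries and may be in part technical.

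The egg of this frog is polar before fertilization, and several maternal RNAs are carried to its vegetal pole during oogenesis and anchored in the cortex there. Vg1 is a secreted ligand of the TGF-beta family that takes part in mesoderm induction. VegT is a T-box transcription factor that sets up endoderm and mesoderm, and its RNA also has a structural role in the cortex. Wnt11b is a secreted Wnt ligand and Trim36 a ubiquitin ligase, both needed maternally for the dorsal axis. Vg1 and Wnt11b are made with a signal peptide and translated on the ER, while VegT and Trim36 act inside the cell. The keratin filament network of the cortex breaks down during maturation, and how the 4 RNAs spread over cytosol, ER and pellet before and after it is what the 6 groups measure.

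In oocytes most copies of the Vg1, Wnt11b and Trim36 RNAs lay in the pellet, and in eggs most lay outside it. The 4 measured gdf1.S models and wnt11b.L had 76.0 to 79.1% of their copies in the oocyte pellet and 25.1 to 30.9% in the egg pellet, as means of 3 libraries. For the trim36 RNAs these shares were 62.6 to 68.8% and 22.5 to 32.8%. The vegt RNAs stood lower in oocytes, at 44.9 to 48.9%, and at 23.1 to 36.1% in eggs. All 9 measured transcripts had a higher cytosolic share in every egg replicate than in any oocyte replicate, and gdf1.S and wnt11b.L also a higher ER share. Of the 17811 transcripts that the authors class as high-abundant, 94.5% had a higher mean cytosolic share in eggs, while the median ER share was lower there.

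Depth was 23151603 to 37863318 estimated counts per library. The attomolar (aM) values used for levels and shares are the authors', converted from TPM by regression on 5 spike-in RNAs. Cytosol, ER and pellet of 1 stage and replicate number together always hold 70656.7 or 70656.8 aM, so a level is relative to that total. Pellet replicate 1 stood apart on this scale in both stages, with a sum of 12437 aM against 6581 and 8249 aM in the other oocyte pellets and 15013 aM against 8273 and 8767 aM in the other egg pellets. Oocyte markers such as gdf9 and ybx2 were present in every group, with a summed TPM of 606 to 1330. Blood and liver markers summed to at most 0.523 TPM. The list of follicle cell markers, for the somatic cells that surround the oocyte, summed to 121 to 136 TPM in the oocyte pellet, against 49.4 to 52.2 in the cytosol and 42.7 to 49.4 in the ER of oocytes. In eggs they summed to 147 to 169 TPM in the pellet, 21.8 to 23.4 in the cytosol and 57.5 to 77.8 in the ER. Much of this was cyp17a1.L, a steroid-synthesis enzyme RNA that Xenopus oocytes are themselves known to express, at means of 47.3 TPM in the oocyte cytosol and 91.9 TPM in the oocyte pellet. The other 11 transcripts of the list summed to 32.1 to 40.7 TPM in the oocyte pellet and 61.2 to 86.8 TPM in the egg pellet, against 3.39 to 5.48 TPM in the other oocyte fractions and 3.55 to 11.6 TPM in the other egg fractions. Most of the higher sum in the egg pellet was hsd3b1.L, at means of 14.8 TPM in the oocyte pellet and 58.2 TPM in the egg pellet. Of the 9 tested without cyp17a1.L, hsd3b1.L was higher and 3 lower in egg against oocyte pellet. Of all transcripts 22.3% were higher and 21.4% lower there. Of the 10 tested with cyp17a1.L, 9 were higher in the oocyte pellet than in the oocyte cytosol, where 35.6% of all transcripts were, and 8 in the egg pellet than in the egg cytosol, where 34.4% were. With spike-in scaling 6 were higher and 2 lower in oocytes, where 3.89% of all were higher and 82.8% lower, with cyp17a1.L at -0.58, and 7 higher and 2 lower in eggs, where 3.20% and 87.2% were. None of the 12 found was at 0 in all libraries. The part of these cells in the pellet values below was not tested. In bulk libraries such as these, fewer cells of a type and less RNA per cell cannot be told apart.

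The 5 deposited models below carry the name gdf1.S, where RefSeq's annotation of Xenopus_laevis_v10.1 lists 1 gene, with Vg1 among its synonyms. The models gene47490, gene40286, gene50666, gene48962 and gene24522 are 557, 601, 864, 556 and 552 nucleotides long. The model gene24522 had no estimated count in any library and was not tested. In the other 4 the estimated counts were whole numbers, to within 0.001, in 18 of 18 libraries, and ran from 78 to 8509 counts. Their log2 TPM values moved together over the 18 libraries, with pairwise Pearson r of 0.989 to 0.997, a description only, since the libraries share fractions and stages. Model gene47490 held 39.7 to 44.7% of the summed gdf1.S concentration as group means, gene40286 25.6 to 27.2%, gene50666 15.2 to 19.9% and gene48962 11.4 to 13.5%. Whether the models are parts of 1 RNA or separate copies could not be settled from these files, so each is reported by itself and sums are stated as such. If they are parts of 1 RNA, a sum over them counts it repeatedly.

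**Figure D1:**
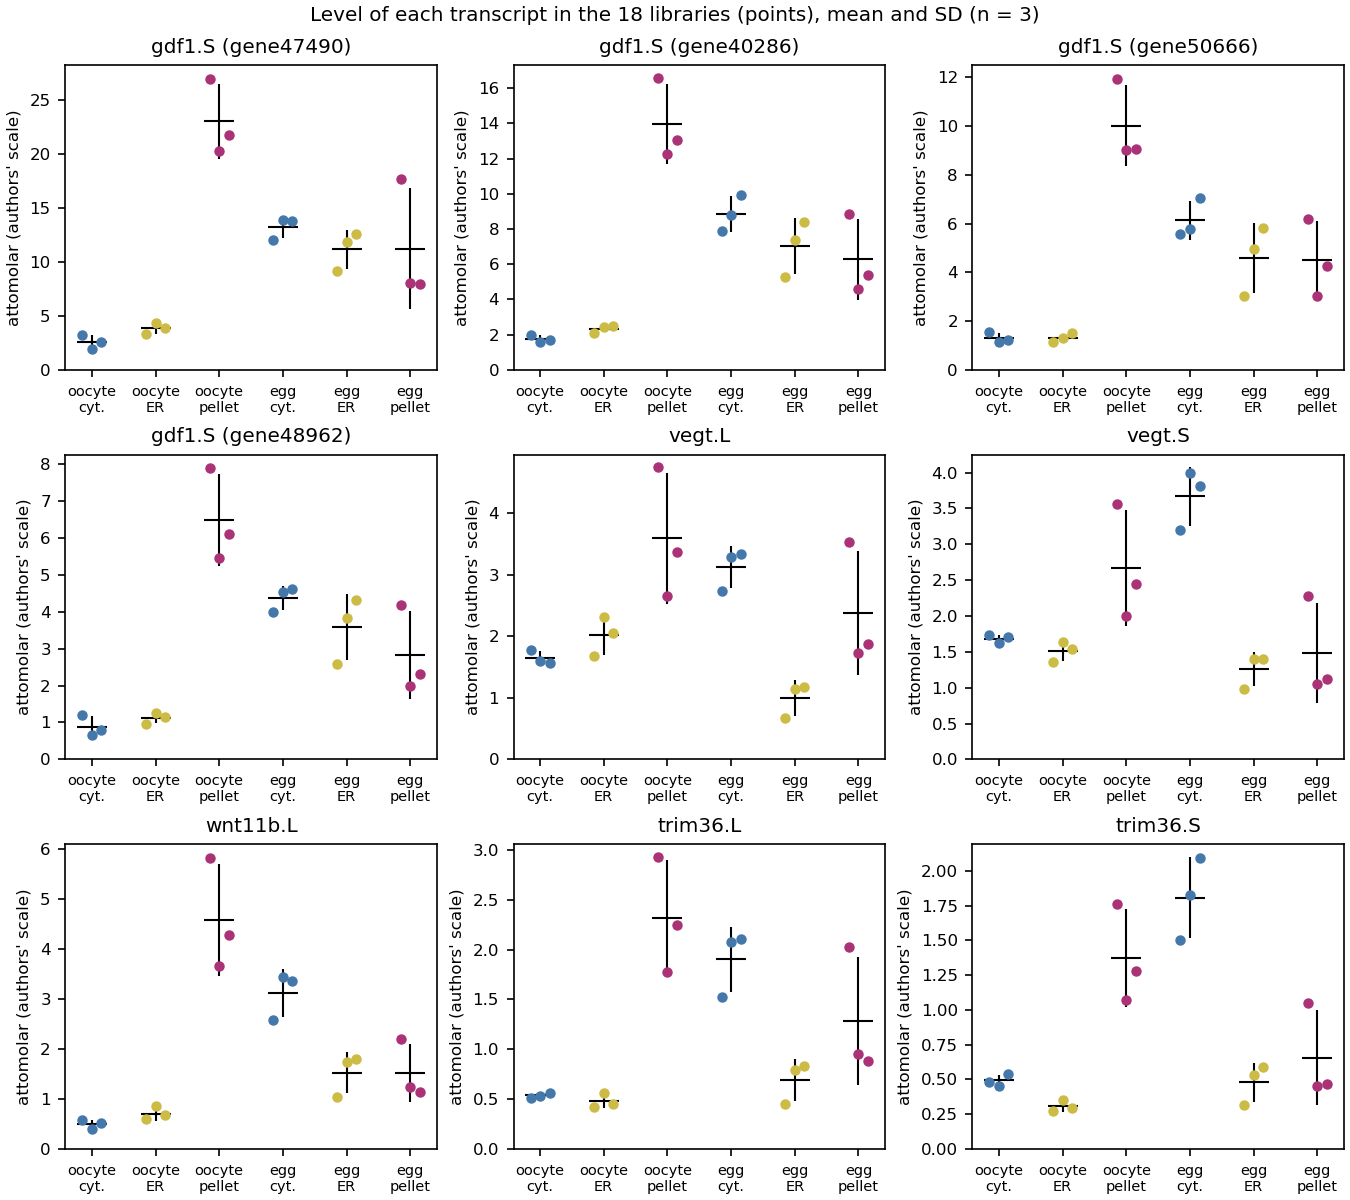
Attomolar level on the authors' scale (vertical axis, linear, from 0) of each of the 9 measured transcripts in the 3 libraries of each group (points, with mean and SD). The oocyte pellet has the highest mean for the 4 gdf1.S models, wnt11b.L, vegt.L and trim36.L, and the egg cytosol for vegt.S and trim36.S.

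With its 4 measured models summed, Vg1 had the highest TPM of the 4 RNAs. If the models are parts of 1 RNA, this sum and the summed percentages below count that RNA repeatedly. Each single model was above the other transcripts in the oocyte pellet, with means of 663 to 2224 TPM against at most 473 TPM, but not in the oocyte cytosol. In the oocyte cytosol the mean TPM of the single models was 30.1 to 84.8, beside 54.0 for vegt.L and 55.4 for vegt.S. In oocyte pellets the model gdf1.S (gene47490) stood at 27.0, 20.3 and 21.8 aM in replicates 1, 2 and 3. It stood at 3.28, 1.98 and 2.64 aM in the oocyte cytosol and at 3.35, 4.38 and 3.89 aM in the oocyte ER. All 3 pellets were above every other oocyte library, and the ER libraries of this model were above its cytosol libraries. In the models gene50666 and gene48962 the oocyte ER and cytosol libraries overlapped. In eggs gdf1.S (gene47490) measured 12.1, 13.9 and 13.9 aM in cytosol, 9.15, 11.9 and 12.6 aM in ER and 17.7, 8.09 and 7.99 aM in pellet. The 3 egg fractions thus overlapped, with pellet replicate 1 far above the other 2, and every egg cytosol and ER library lay above every oocyte cytosol and ER library. Summed over its 4 measured models, gdf1.S made up 0.0209% ± 0.00475 (SD, n = 3) of the oocyte cytosol's concentration, 0.0291% ± 0.00186 of the oocyte ER's and 0.610% ± 0.103 of the oocyte pellet's. In eggs it made up 0.0823% ± 0.00423 of the cytosol's, 0.130% ± 0.0278 of the ER's and 0.229% ± 0.0163 of the pellet's.

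In oocytes Wnt11b RNA was spread over the fractions much as Vg1 was, at a lower level. In oocyte pellets wnt11b.L measured 5.82, 3.65 and 4.27 aM. It measured 0.572, 0.401 and 0.513 aM in the oocyte cytosol and 0.589, 0.861 and 0.671 aM in the oocyte ER. The pellet values were again above every other oocyte library. In eggs it measured 2.57, 3.43 and 3.35 aM in cytosol, 1.05, 1.73 and 1.80 aM in ER and 2.19, 1.23 and 1.15 aM in pellet. Egg cytosol was above both other egg fractions in all 3 libraries, and egg ER and pellet overlapped.

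The VegT RNAs were spread more evenly. In oocytes vegt.L measured 1.77, 1.60 and 1.56 aM in cytosol, 1.68, 2.31 and 2.05 aM in ER and 4.74, 2.65 and 3.37 aM in pellet. In eggs it measured 2.73, 3.29 and 3.33 aM in cytosol, 0.668, 1.15 and 1.18 aM in ER and 3.53, 1.73 and 1.88 aM in pellet. The egg ER libraries of vegt.L were the lowest of all 18, below even the oocyte cytosol. In oocytes vegt.S measured 1.73, 1.62 and 1.70 aM in cytosol, 1.36, 1.63 and 1.54 aM in ER and 3.56, 2.00 and 2.45 aM in pellet. In eggs it measured 3.20, 3.99 and 3.82 aM in cytosol, 0.987, 1.40 and 1.40 aM in ER and 2.28, 1.05 and 1.12 aM in pellet. Its oocyte cytosol and ER libraries overlapped, as did its egg ER and pellet libraries.

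The trim36 homeologs had the lowest sums over the 3 fractions of the 9 transcripts, with means of 3.34 and 2.17 aM for trim36.L and trim36.S in oocytes and 3.88 and 2.94 aM in eggs. In oocytes trim36.L measured 0.514, 0.536 and 0.565 aM in cytosol, 0.424, 0.560 and 0.456 aM in ER and 2.93, 1.78 and 2.24 aM in pellet. In eggs it measured 1.53, 2.07 and 2.11 aM in cytosol, 0.453, 0.791 and 0.832 aM in ER and 2.03, 0.948 and 0.881 aM in pellet. Its pellet stood above the cytosol and ER in all oocyte libraries, but egg pellet and egg cytosol overlapped. In oocytes trim36.S measured 0.483, 0.456 and 0.538 aM in cytosol, 0.275, 0.350 and 0.294 aM in ER and 1.77, 1.07 and 1.28 aM in pellet. In eggs it measured 1.51, 1.83 and 2.09 aM in cytosol, 0.317, 0.532 and 0.586 aM in ER and 1.05, 0.454 and 0.464 aM in pellet. Egg cytosol was above both other egg fractions of trim36.S in every library.

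**Figure D2:**
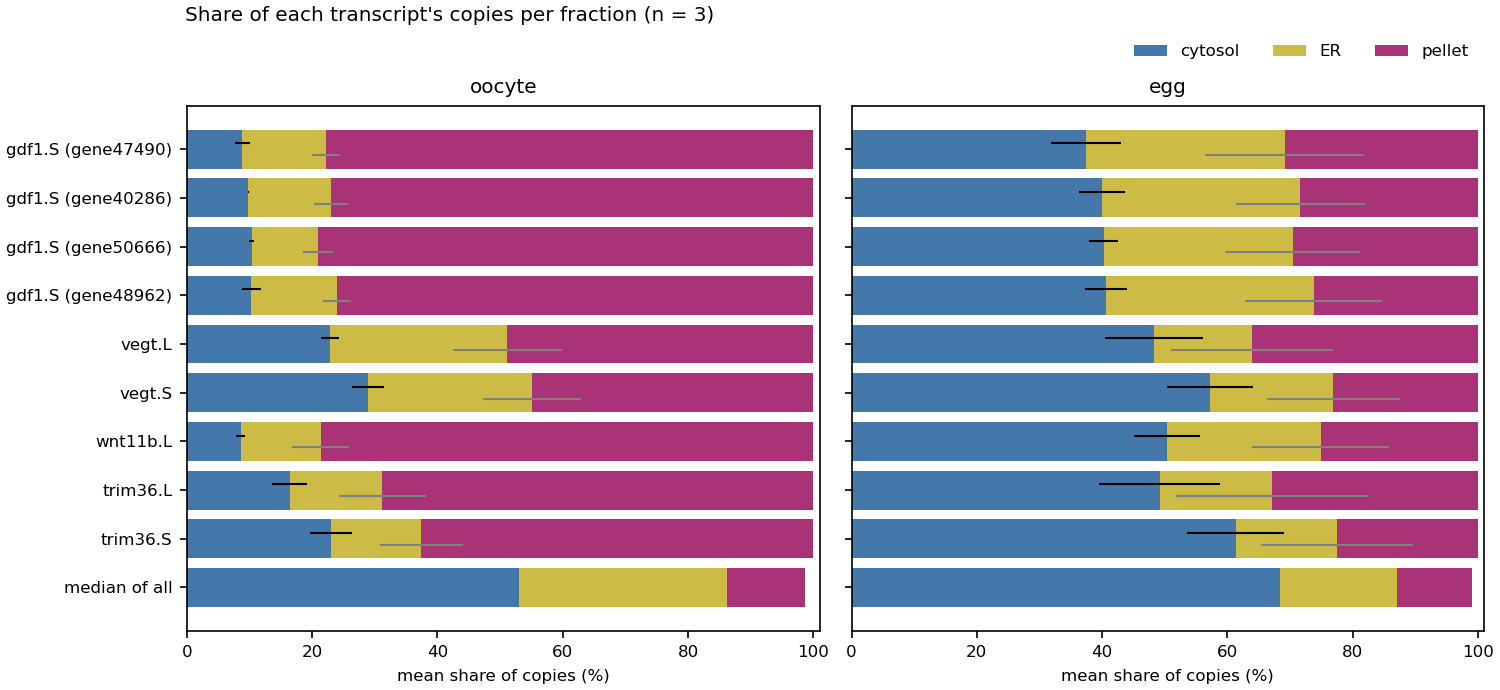
Mean share of each transcript's copies (horizontal axis, percent of the authors' attomolar sum over the 3 fractions) in cytosol, ER and pellet of oocytes and of eggs; black bars are the SD of the cytosol share and grey bars the SD of the pellet share (n = 3), and the bottom bar stacks the medians over 17811 high-abundant transcripts. The pellet bar shrinks in eggs for all 9 transcripts, and the ER bar widens most for gdf1.S and wnt11b.L.

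The shares put the 3 fractions of a replicate on 1 scale. The authors' deposited table classes 17811 transcripts as high-abundant, among them the 9 measured here, and over all of them the median pellet share was 12.4% in oocytes and 12% in eggs. The share of wnt11b.L in the oocyte pellet, 78.7% ± 4.55 (SD, n = 3), was exceeded by 34 of the 17811. In the egg pellet it was 25.1% ± 11, exceeded by 1136. That of vegt.S, 44.9% ± 7.87, was exceeded by 190 transcripts in oocytes and by 1566 in eggs, at 23.1% ± 10.6. The pellet share of trim36.L went from 68.8% ± 6.93 to 32.8% ± 15.4 and that of trim36.S from 62.6% ± 6.64 to 22.5% ± 12.2. For 8 of the 9 transcripts the oocyte and egg pellet shares did not overlap, and for each the two-sided exact permutation test gave p = 0.1, the smallest that 3 against 3 allows (adjusted p = 0.117 over 27 share tests). The exception was vegt.L, at 48.9% ± 8.72 and 36.1% ± 12.9, whose libraries overlapped (exact permutation p = 0.3, adjusted p = 0.324). The 8 include the 4 gdf1.S models, which may be parts of 1 RNA. Of all 17811 transcripts 47.5% had a higher mean pellet share in eggs, and the share of them without overlap is not given here. Without replicate 1, whose pellets stood apart, the egg minus oocyte pellet share was more negative for all 9, at -57.5 points in wnt11b.L and -15.7 points in vegt.L.

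Published classes of position along the animal-vegetal axis, deposited with the tables, call wnt11b.L, trim36.L and trim36.S extremely vegetal and vegt.L and vegt.S vegetal, while the gdf1.S models have no class. The 22 high-abundant transcripts classed extremely vegetal had a median pellet share of 74.3% in oocytes and 19.9% in eggs, and the 129 classed vegetal 38.2% and 13.3%. The determinants with a class are counted in these medians. The loss of wnt11b.L from the pellet, 53.6 percentage points, was exceeded by 26 of the 17811 transcripts, and that of vegt.L, 12.8 points, by 525.

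**Figure D3:**
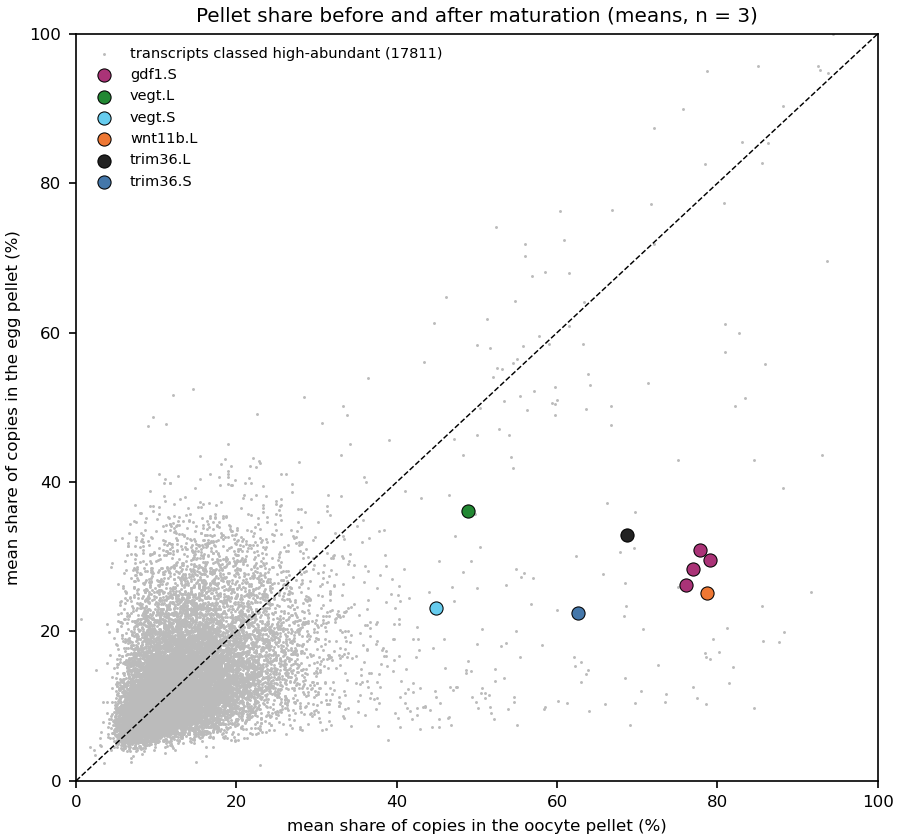
Mean share of copies in the oocyte pellet (horizontal axis, percent) against that in the egg pellet (vertical axis, percent), each a mean of 3 replicates, for the 17811 high-abundant transcripts (grey) and the 9 determinant transcripts (coloured); the dashed line marks equal shares. All 9 lie right of the bulk and below the line, with vegt.L nearest to it.

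The RNAs of the secreted proteins had a higher ER share in eggs than in oocytes, while their cytosolic share rose by more. The mean ER share rose by 18.3 to 19.6 points in the gdf1.S models and by 11.8 points in wnt11b.L. Their mean cytosolic share rose by 28.6 to 30.4 points and by 41.8 points. The 4 gdf1.S models had 10.6 to 13.7% of their copies on the oocyte ER and 30.2 to 33.2% on the egg ER. For wnt11b.L the ER share went from 12.8% ± 4.56 to 24.5% ± 5.71. None of these 5 transcripts' stages overlapped (exact permutation p = 0.1 each, adjusted p = 0.117). Over the 17811 high-abundant transcripts the median ER share went the other way, from 33.4% to 18.7%, and 259 of them (1.45%) had a higher mean ER share in eggs. Between 4 and 9 transcripts had a larger increase in ER share than a given gdf1.S model, and 38 a larger one than wnt11b.L. The trim36 RNAs, whose protein is not secreted, were also among the 259, with mean increases of 3.14 points for trim36.L and 1.71 points for trim36.S that 155 and 197 transcripts exceeded. The ER share of vegt.L went from 28.4% ± 7.37 to 15.6% ± 5.16 with no overlap (exact permutation p = 0.1), and that of vegt.S from 26.2% ± 5.34 to 19.7% ± 3.82 with overlap (p = 0.3). The trim36 RNAs had overlapping ER shares, 14.8% ± 4.32 and 17.9% ± 5.76 for trim36.L and 14.5% ± 3.90 and 16.2% ± 4.48 for trim36.S (exact permutation p = 0.5 each).

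Cytosolic shares were higher in eggs for all 9 transcripts, by 25.5 points in vegt.L to 41.8 points in wnt11b.L, with no overlap in any (exact permutation p = 0.1 each, adjusted p = 0.117). Over all high-abundant transcripts the median cytosolic share went from 52.9 to 68.4%, and 94.5% of them had a higher mean cytosolic share in eggs. A rise by itself thus does not set the determinants apart. The share of all transcripts without overlap is not given here. The difference of wnt11b.L was exceeded by 152 of the 17811 transcripts and that of vegt.L by 2025. After maturation 37.5 to 40.7% of the gdf1.S copies were cytosolic, below the 48.3 to 61.3% of the other 5 transcripts.

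Summed over the 3 fractions, the copies of a transcript were also compared between stages. Egg over oocyte ratios of the summed aM ran from 0.897 for vegt.L to 1.35 for trim36.S, where the median over 17811 transcripts was 1.10. The gdf1.S models had ratios of 1.20 to 1.27, and for gdf1.S (gene47490) the sum was 29.6 ± 3.62 aM in oocytes and 35.7 ± 2.79 aM in eggs (SD, n = 3). The exact permutation test cannot give a p under 0.1 with 3 against 3 libraries, so no ratio could pass (adjusted p = 0.225 to 0.6 over the 9 transcripts). The stages did not overlap for 4 of 9. These were trim36.S and the gdf1.S models gene47490, gene40286 and gene48962, which may be parts of 1 RNA. The share of all transcripts without overlap is not given here.

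**Figure D4:**
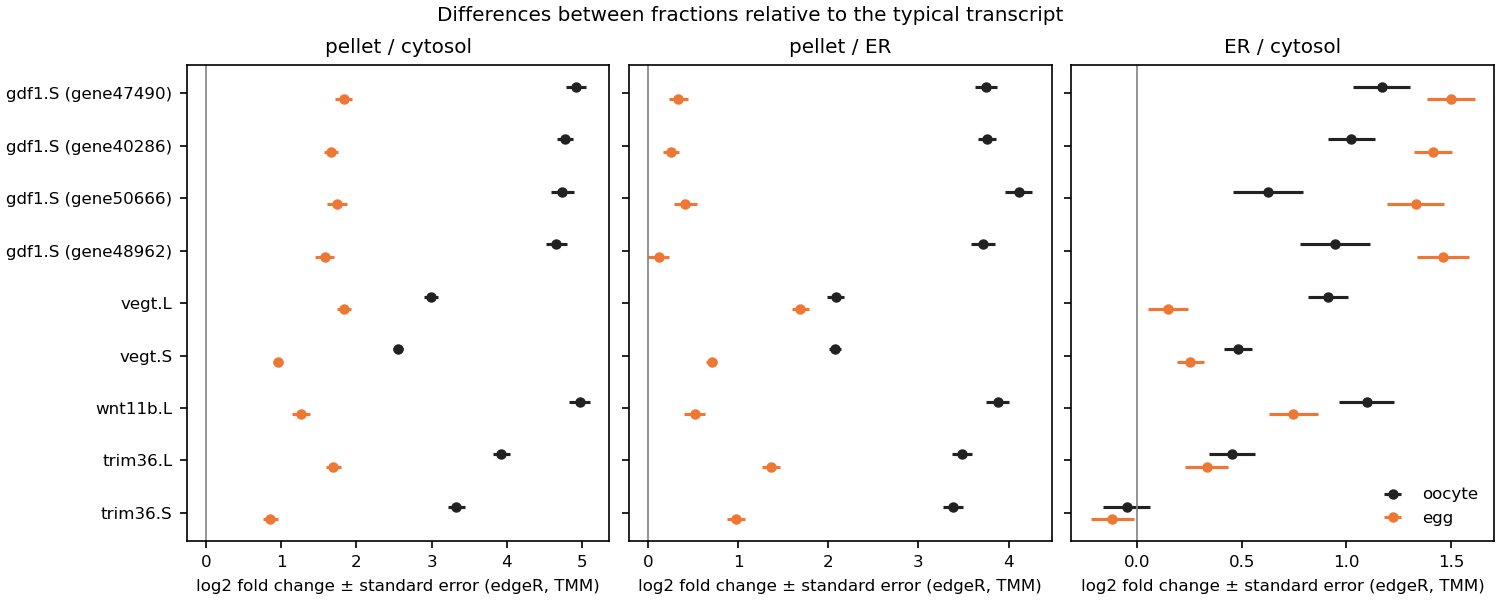
Log2 fold change with its standard error (horizontal axis, edgeR with TMM factors, relative to the typical transcript) of each transcript between 2 fractions, in oocytes (black) and eggs (orange). Pellet over cytosol lies between 2.55 and 4.97 in oocytes and between 0.85 and 1.83 in eggs.

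The count-based tests used edgeR's quasi-likelihood method over all 18 libraries, with a call made where the p adjusted by Benjamini-Hochberg over 25938 transcripts was under 0.05. Of the 10 determinant transcripts 9 passed the low-count filter. Of these 4 are gdf1.S models that may be parts of 1 RNA, so counts out of 9 are counts of transcripts and not of separate RNAs. With TMM a fold change is relative to the typical transcript, while scaling to the spike-ins moves the median of all transcripts by -1.68 log2 units in oocyte pellet over cytosol, -1.94 in egg pellet over cytosol, -1.80 in egg ER over cytosol and -0.71 in egg over oocyte ER. Both scales are therefore given.

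In oocytes the pellet exceeded the cytosol for 9 of 9 transcripts, where 35.6% of all transcripts were called higher and 32.6% lower. With spike-in scaling 9 of 9 were again higher, where 3.89% of all were higher and 82.8% lower. Relative to the typical transcript the log2 fold changes were largest for wnt11b.L, 4.97 ± 0.138 (SE; adjusted p = 4.41e-17), and for gdf1.S (gene47490), 4.92 ± 0.132 (adjusted p = 3.02e-17). They were smallest for vegt.S, 2.55 ± 0.0666 (adjusted p = 2.41e-17). Against the oocyte ER the pellet was also higher for 9 of 9, by 2.07 for vegt.S to 4.11 for gdf1.S (gene50666), where 28.0% of all transcripts were called higher, and for 9 of 9 with spike-in scaling, where 5.72% were higher and 66.1% lower. The oocyte ER exceeded the cytosol for 8 of 9 by 0.45 to 1.17, where 24.3% were called higher and 24.8% lower, with trim36.S at -0.05 ± 0.113 (adjusted p = 0.751). With spike-in scaling none of the 9 was higher on the oocyte ER and trim36.S was lower, by -0.86 (adjusted p = 0.00131), where 2.56% of all were higher and 60.3% lower.

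In eggs the pellet excess was smaller. Relative to the typical transcript the egg pellet exceeded the egg cytosol for 9 of 9, by 0.85 for trim36.S to 1.83 for vegt.L, where 34.4% were called higher. With spike-in scaling none was higher and 3 (vegt.S, wnt11b.L and trim36.S) were lower, where 3.20% of all were higher and 87.2% lower. The egg pellet exceeded the egg ER for 8 of 9, where 30.6% were called higher and 29.4% lower, most for vegt.L, at 1.69 ± 0.0941 (adjusted p = 1.34e-11), and least for gdf1.S (gene48962), at 0.12 ± 0.116 (adjusted p = 0.4). Only vegt.L, trim36.L and trim36.S of these were higher with spike-in scaling, where 13.0% of all were higher and 17.4% lower. Without egg ER replicate 1 the calls of gdf1.S gene40286 and gene50666 were lost, at 0.16 and 0.26. Without egg pellet replicate 3 the same calls were lost, and without egg pellet replicate 1 that of gene47490, at 0.26.

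The egg ER exceeded the egg cytosol for 7 of 9 relative to the typical transcript, where 18.4% were called higher. The gdf1.S models led, at 1.33 to 1.5, and wnt11b.L followed at 0.75 ± 0.118 (adjusted p = 2.47e-05). The transcripts that did not pass were vegt.L, at 0.15 ± 0.0938 (adjusted p = 0.237), and trim36.S, at -0.12 ± 0.104 (adjusted p = 0.402). Without egg ER replicate 1 vegt.L passed, at 0.28, and trim36.L, at 0.33, lost its call without egg cytosol replicate 1 or egg ER replicate 2 or 3, at 0.26 to 0.29. With spike-in scaling none was higher and 5 were lower, where 0.540% of all were higher and 92.7% lower. The 4 gdf1.S models, at -0.28 to -0.44, were the transcripts of the 9 that did not pass as lower.

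Between stages the cytosol gained the determinants. Egg cytosol exceeded oocyte cytosol for 9 of 9, where 18.4% were called higher, and for 9 of 9 with spike-in scaling, where 10.1% were higher and 2.45% lower. The rise was 2.07 ± 0.130 for wnt11b.L (adjusted p = 3.36e-11), 1.72 to 1.85 for the gdf1.S models, 1.26 and 1.31 for trim36.L and trim36.S, 0.64 for vegt.S and 0.44 ± 0.0941 for vegt.L (adjusted p = 0.000652). In the authors' deposited table the egg over oocyte cytosol ratios of attomolar means were 6.30 for wnt11b.L, 4.69 to 5.05 for the gdf1.S models, 3.53 and 3.67 for trim36.L and trim36.S and 1.90 and 2.18 for vegt.L and vegt.S.

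On the ER the stages differed in direction among the determinants. Relative to the typical transcript 8 of 9 were higher on the egg than on the oocyte ER, where 12.4% were called higher, led by the gdf1.S models at 2.18 to 2.42 and wnt11b.L at 1.72 ± 0.124 (adjusted p = 1.5e-09). The remaining one, vegt.L, was lower by -0.32 ± 0.0936 (adjusted p = 0.0123), where 16.1% were called lower. This call was lost without oocyte ER replicate 2, at -0.20, and without egg ER replicate 1, at -0.18. With spike-in scaling 6 of 9 were higher (the 4 gdf1.S models, wnt11b.L and trim36.S), where 0.790% of all were higher, and vegt.L was lower, by -1.02 (adjusted p = 0.00025), where 61.3% were lower. In the authors' deposited table the egg over oocyte ER ratio was 2.89 to 3.50 for the gdf1.S models (authors' q-values 0.0251 to 0.0561). It was 0.497 for vegt.L (q = 0.0514) and 0.834 for vegt.S (q = 0.313). For wnt11b.L it was 2.16 (q = 0.0846), and for trim36.L and trim36.S 1.44 and 1.56 (q = 0.293 and 0.221).

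The pellet lost the determinants at maturation. All 9 fell, where 21.4% of all transcripts were called lower and 22.3% higher, by -1.64 ± 0.115 for wnt11b.L (adjusted p = 2.9e-10), -1.23 to -1.32 for the gdf1.S models, -1.17 for trim36.S, -0.98 for trim36.L, -0.96 for vegt.S and -0.72 ± 0.0902 for vegt.L (adjusted p = 1.09e-06). With spike-in scaling 8 of 9 were lower, where 4.74% of all were lower and 5.46% higher, and vegt.L did not pass, at -0.66 (adjusted p = 0.0585). On the authors' attomolar values with limma vegt.L, vegt.S and trim36.L did not pass, at -0.63, -0.90 and -0.92. Of the 10 tested follicle cell markers 3 were lower and 1 higher in the egg pellet.

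The change of the pellet to cytosol difference between stages was tested as an interaction. It was lower for 9 of 9, where 23.4% were called lower, and for 9 of 9 with spike-in scaling, where 12.4% were lower and 5.65% higher. The drop was -3.71 ± 0.174 for wnt11b.L (adjusted p = 1.91e-13), -3.00 to -3.12 for the gdf1.S models, -2.48 and -2.24 for trim36.S and trim36.L, -1.60 for vegt.S and -1.16 ± 0.130 for vegt.L (adjusted p = 1.39e-07). The change of the ER to cytosol difference passed for gdf1.S (gene50666), higher by 0.71 ± 0.214 (adjusted p = 0.0161), where 12.4% were called higher, and for vegt.L, lower by -0.76 ± 0.133 (adjusted p = 0.000123), where 14.7% were called lower. The other 7 lay between -0.35, for wnt11b.L, and 0.52, for gdf1.S (gene48962), and did not pass. Among them gdf1.S (gene40286), at 0.39 (adjusted p = 0.0513), passed with a replicate block (adjusted p = 0.032) and with a block within stage (adjusted p = 0.024). Without oocyte cytosol replicate 1 the call of gene50666 was lost, at 0.55. With spike-in scaling none was higher and 5 (vegt.L, vegt.S, wnt11b.L, trim36.L and trim36.S) were lower, where 0.493% of all were higher and 57.3% lower.

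A ratio of 2 determinants in the same library needs neither scale. The summed TPM of gdf1.S over that of vegt, as log2, was 1.30, 1.23 and 1.31 on the oocyte ER and 3.45, 3.43 and 3.56 on the egg ER. The egg ratios were thus all higher, by 4.59-fold on average. In cytosol the same log2 ratio went from 0.96 ± 0.212 to 2.25 ± 0.0402 (SD, n = 3), and in pellet from 3.01 ± 0.121 to 2.56 ± 0.00398. The ratio of wnt11b.L to vegt was 3.22-fold higher on the egg ER, 2.91-fold higher in the egg cytosol and 1.77-fold lower in the egg pellet. The ratio of trim36 to vegt was 2.20-fold higher on the egg ER, 1.66-fold higher in the egg cytosol and 1.17-fold lower in the egg pellet. None of these 9 ratios overlapped between stages, and each had an exact permutation p of 0.1, also after adjustment over the 9.

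**Figure D5:**
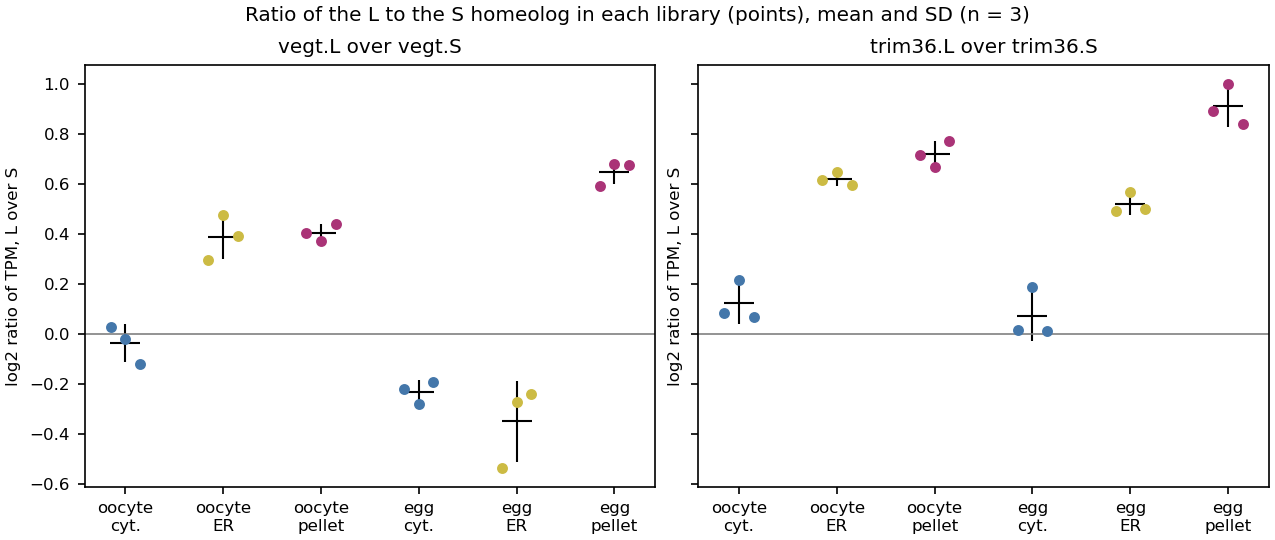
Log2 ratio of the TPM of the L over the S homeolog (vertical axis) of vegt and of trim36 in each library (points), with mean and SD (n = 3). On the ER the vegt ratio is 0.30 to 0.48 in oocytes and -0.53 to -0.24 in eggs, while that of trim36 stays at 0.49 to 0.65.

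The homeologs of vegt and trim36 were not spread alike. In oocytes the log2 ratio of vegt.L over vegt.S was -0.04 ± 0.0758 in cytosol, 0.39 ± 0.0896 on the ER and 0.41 ± 0.0342 in pellet (SD, n = 3). In eggs it was -0.23 ± 0.0458, -0.35 ± 0.161 and 0.65 ± 0.0491. The ER thus went from an excess of vegt.L to an excess of vegt.S, a change of -0.74 with no overlap. The log2 ratio of trim36.L over trim36.S was 0.12 ± 0.0808, 0.62 ± 0.0270 and 0.72 ± 0.0515 in the 3 oocyte fractions and 0.07 ± 0.0995, 0.52 ± 0.0412 and 0.91 ± 0.0807 in those of eggs. For 5 of the 6 changes (all but trim36 in cytosol, p = 0.5) the stages did not overlap, with exact permutation p = 0.1 and adjusted p = 0.12. By the same tolerance the estimated counts were whole in 1 of 18 libraries for both vegt homeologs and in 5 of 18 for both trim36 homeologs. Reads shared between the copies were therefore divided by the quantification, and the values of single homeologs are uncertain.

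Among 14518 transcripts that are no determinants and have a symbol and a mean log2 CPM of at least 3, those nearest in pattern were found by the root mean square difference of centred log2 CPM over the 18 libraries. Nearest to the gdf1.S models and to wnt11b.L were snai1.S, encoding a zinc finger transcription factor, and ppp1r2.L, encoding an inhibitor of protein phosphatase 1, at 0.39 to 0.46 log2 units for gdf1.S and 0.29 and 0.33 for wnt11b.L. The third place went to pgam1.L, a glycolytic mutase, or to LOC108719514. The gdf1.S models lay 0.11 to 0.24 log2 units from each other and 0.25 to 0.29 from wnt11b.L. Nearest to trim36.L were pgam1.L, dnd1.L, a germ plasm RNA, and trank1.L, at 0.23 to 0.24, and nearest to trim36.S were LOC108704989, mob3a.S and tex15.L, at 0.23 to 0.31. Nearest to vegt.L were pced1a.L, plk3.L, a kinase, and spire1.S, an actin nucleator, at 0.21 to 0.29, and nearest to vegt.S were LOC100489074.L, wnk2.L and irf8.L, at 0.16 to 0.17.

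Other RNAs known to localize vegetally were also enriched in the oocyte pellet. Of 20 such transcripts 19 were higher there than in the cytosol and none lower, with a median log2 fold change of 3.15 beside 0.07 over all transcripts, of which 35.6% were higher. With spike-in scaling 14 were higher and none lower, where 3.89% of all were higher and 82.8% lower. The sybu homeologs, whose protein syntabulin binds a microtubule motor, led with 5.92 ± 0.171 for sybu.S and 5.86 ± 0.126 for sybu.L, and 4.17 and 4.11 with spike-in scaling. The smallest calls were plin2.S, encoding a lipid droplet coat protein, at 1.77 and bicc1.L, encoding an RNA-binding protein, at 1.89, neither of which passed with spike-in scaling, at 0.02 and 0.13. In eggs 13 of the 20 were higher and 4 lower in pellet against cytosol, with a median of 0.50, where 34.4% of all were called higher and 32.4% lower. With spike-in scaling 3 were higher and 13 lower, where 3.20% of all were higher and 87.2% lower. The change of the difference between stages was lower for 19 of 20 (median -2.47), where 23.4% of all were lower, and for 18 of 20 with spike-in scaling, where 12.4% were. The mean pellet share of sybu.L was 78.6% in oocytes and 16.5% in eggs.

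The RNAs of proteins that work with the determinants are given for the oocyte pellet against cytosol. The counts are read against 35.6% of all transcripts higher and 32.6% lower in that comparison, and 3.89% higher and 82.8% lower with spike-in scaling. Of 24 tested RNAs of localization factors, the proteins that bind and carry vegetal RNAs, 4 were higher and 15 lower relative to the typical transcript, and none was higher and 23 lower with spike-in scaling. That of igf2bp3.S, encoding a protein that binds Vg1 RNA, was higher by 1.44 ± 0.494 (adjusted p = 0.0135) and stood at -0.30 with spike-in scaling, where it did not pass. That of hnrnpab.L, also an RNA-binding protein, was higher by 0.34 and lower by -1.42 with spike-in scaling. Those of stau2.S and ptbp1.L, which bind localized RNAs as well, were lower on both scales, by -1.22 and -1.0 relative to the typical transcript.

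Of 32 tested RNAs of Vg1 and nodal signalling 10 were higher and 17 lower, where 35.6% and 32.6% of all were. With spike-in scaling 4 were higher and 27 lower, a share of lower calls near the 82.8% of all. The activin receptor RNAs acvr2b.L and acvr1b.S were lower on both scales, by -1.26 and -1.28 relative to the typical transcript. The activin subunit RNA inhba.L was higher on both, by 4.87 ± 0.666 at a mean of 0.553 TPM in the pellet. A second activin subunit RNA, inhbb.S, was listed at 0 in all oocyte cytosol libraries and at a mean of 0.438 TPM in the pellet. Mean pellet shares of inhba.L and inhbb.S were 68.4% and 59.1% in oocytes and 67.1% for both in eggs. The part of follicle cells in these values was not tested.

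Of 35 tested RNAs of Wnt11b signalling 8 were higher and 20 lower, and none and 34 with spike-in scaling, where of all transcripts 35.6% were higher and 32.6% lower, and 3.89% and 82.8% with spike-in scaling. The RNA of wls.L, the carrier that brings Wnt proteins to the cell surface, was higher by 0.78 ± 0.0673 relative to the typical transcript but lower by -0.98 with spike-in scaling. The Wnt ligand RNA wnt5a.L was higher by 1.87 ± 0.382 at a mean of 0.844 TPM in the pellet, and did not pass with spike-in scaling, at 0.12. Those of the co-receptors lrp6.S and lrp5.L were lower on both scales, by -1.66 and -2.50 relative to the typical transcript. Of 34 transcripts of genes that VegT activates in the embryo 11 were tested, with 4 higher and 2 lower, and 3 and 6 with spike-in scaling, beside the same shares of all. The endoderm factor RNAs gata6.L and gata6.S were higher on both scales, by 5.05 and 3.39 relative to the typical transcript. Their means were low, at 0.246 and 1.33 TPM in the oocyte cytosol and 7.20 and 12.1 TPM in the oocyte pellet. Unlike the determinants, both were higher in the egg than in the oocyte pellet, by 0.79 and 1.13 relative to the typical transcript. Mean pellet shares were 65.6% in oocytes and 60.7% in eggs for gata6.L, and 55.8% and 58.3% for gata6.S. The part of follicle cells in these values was not tested either. The RNAs of tbxt.S and gata5.L were lower in the oocyte pellet than in the cytosol on both scales, by -0.68 and -0.55 relative to the typical transcript. Of 12 RNAs of cortical rotation, the microtubule-driven shift of the cortex after fertilization, 6 were higher and 6 lower, and 4 and 7 with spike-in scaling, again beside 35.6% and 32.6%, and 3.89% and 82.8%, of all. The sybu homeologs given above led this list as well, and ctnnb1.L, encoding beta-catenin, and dvl3.L, encoding a Dishevelled protein, were lower on both scales, by -1.24 and -0.98 relative to the typical transcript.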

How the data were processed

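RNA of the 3 fractions was extracted with TRIzol after spike-ins were added, depleted of ribosomal RNA and sequenced from stranded libraries, per the labels. Per the submitters' processing notes the authors ran kallisto 0.46.2, and they deposited its estimated counts and TPM per transcript. The transcript set and genome build are not given in the sources used here. Attomolar values (deposited as a linear signal), the percent of a transcript's copies in each fraction, ratio columns, q-values and z scores are the authors' deposited values. Another 21 columns of the series tables were not used here.

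Groups follow the stage and fraction in the labels. Estimated counts were rounded, 1 transcript without a name and the 5 spike-ins were left out, and 25938 transcripts that passed filterByExpr were fitted with edgeR 4.0.16 in R 4.3.3 (TMM, glmQLFit and glmQLFTest, 12 residual degrees of freedom, no replicate block). Benjamini-Hochberg adjustment ran over all of them, in each of 11 comparisons. The script was tested on simulated data. Shares, totals and ratios were compared by two-sided exact permutation of 3 against 3 libraries, which cannot give a p under 0.1. No 2 replicates agreed within counting noise (chi-square per degree of freedom at least 3.79). Same-numbered libraries correlated in their deviations at 0.10 to 0.22 within oocyte pellet and ER, oocyte ER and cytosol, and egg pellet and ER. There the numbers were taken to pair libraries, and the block changed no call of a determinant in these comparisons. In the other comparisons within a stage they correlated at 0.09 to 0.19. The numbers were not taken to pair there, since some values were under 0.1, though all 3 libraries matched their own number best. The shares and the totals over the 3 fractions still join the libraries of a stage by replicate number. Between stages the correlations were -0.03 to 0.03, and the numbers were not taken to pair.

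Alternatives were DESeq2 1.42.0, spike-in scaling, no filter, counts summed by symbol, a replicate block, limma 3.58.1 on log2 of attomolar values with a pseudocount of 0.01 or 0.1, TPM over spike-in TPM, and each library left out in turn. The gene lists, the determinants and the tests were chosen with earlier results of these data known. Named genes are all determinant transcripts, the 3 nearest in pattern to each, and per list the 2 called transcripts with the highest and the 2 with the lowest log2 fold change in oocyte pellet against cytosol. Ratios of homeologs and of determinants, with their alternatives, and the block within stage were added after seeing the data.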

Additional observations from a re-analysis of the deposited data

Results flagged for a closer look

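The results listed here were picked out because a difference between fractions was not the same in oocytes and eggs, by edgeR's test of the interaction over 25938 transcripts. The pellet to cytosol difference was smaller in eggs for all 9 tested transcripts, where 23.4% of all transcripts were called lower. The change was -3.71 for wnt11b.L (adjusted p = 1.91e-13). For the gdf1.S models it was -3.09 for gene47490, -3.12 for gene40286, -3.00 for gene50666 and -3.08 for gene48962 (adjusted p = 6.43e-14 to 4.07e-11). It was -2.24 for trim36.L and -2.48 for trim36.S (adjusted p = 3.24e-11 and 7.14e-12), -1.60 for vegt.S (adjusted p = 3.31e-12) and -1.16 for vegt.L (adjusted p = 1.39e-07). The ER to cytosol difference was larger in eggs for gdf1.S (gene50666), by 0.71 (adjusted p = 0.0161), and smaller for vegt.L, by -0.76 (adjusted p = 0.000123). Of all transcripts 12.4% were called higher and 14.7% lower there. The change of vegt.L kept its sign with spike-in scaling and that of gene50666 did not. No cause of these differences was tested.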

How the results depend on the processing

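The pellet results in oocytes, egg against oocyte cytosol and the change of the pellet to cytosol difference kept their direction for all 9 transcripts under every alternative run, as did the shares and the ratios of determinants and homeologs. The comparisons of egg pellet or of ER with another fraction depended on whether the typical transcript or the spike-ins set the scale, since those 2 scales differ by construction. With spike-in scaling the determinants called higher and lower were 0 and 1 in oocyte ER against cytosol, 0 and 3 in egg pellet against cytosol, 0 and 5 in egg ER against cytosol and 0 and 5 in the change of the ER to cytosol difference, and 3 were higher in egg pellet against ER. On attomolar values with limma (pseudocount 0.01, and 0.1 after the comma) those higher were 0, 0 in the first 3 and in the last of these, 2, 2 in egg pellet against ER and 5, 5 in egg against oocyte ER. Those lower were 5, 6 in egg pellet against cytosol, 5, 5 in egg ER against cytosol and 5, 5 in the change of the ER to cytosol difference. Of all 25938 transcripts tested, 1196, 858 were higher in egg pellet against ER and 130, 88 in egg against oocyte ER. Higher in oocyte ER against cytosol were 684, 733, in egg pellet against cytosol 518, 443 and in egg ER against cytosol 116, 86. In the change of the ER to cytosol difference 92, 93 were higher. Of all transcripts 23762, 23553 were lower in egg pellet against cytosol and 23990, 23689 in egg ER against cytosol. In the change of the ER to cytosol difference 15495, 18020 were lower. Most transcripts were thus called lower on this scale, and these lower calls do not set the determinants apart.

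The log2 values that turned negative are given with spike-in scaling, then with limma at pseudocounts of 0.01 and 0.1. In oocyte ER against cytosol these were vegt.S (-0.33, -0.16, -0.15), trim36.L (-0.36, -0.17, -0.14), and with spike-in scaling alone gene50666 (-0.17). In egg pellet against cytosol these were gene47490 (-0.11, -0.34, -0.34), gene40286 (-0.31, -0.55, -0.54), gene50666 (-0.23, -0.50, -0.49), gene48962 (-0.38, -0.70, -0.68), vegt.L (-0.12, -0.46, -0.44), vegt.S (-0.99, -1.39, -1.33), wnt11b.L (-0.72, -1.08, -1.03), trim36.L (-0.26, -0.65, -0.61), trim36.S (-1.09, -1.55, -1.41). In egg pellet against ER these were gene48962 (-0.066, -0.38, -0.37), and on attomolar values alone gene47490 (-0.084, -0.083), gene40286 (-0.20, -0.19), gene50666 (-0.046, -0.045), wnt11b.L (-0.021, -0.019). In egg ER against cytosol these were gene47490 (-0.28, -0.26, -0.26), gene40286 (-0.37, -0.36, -0.35), gene50666 (-0.44, -0.46, -0.45), gene48962 (-0.31, -0.32, -0.31), vegt.L (-1.63, -1.67, -1.58), vegt.S (-1.53, -1.55, -1.48), wnt11b.L (-1.03, -1.06, -1.01), trim36.L (-1.44, -1.48, -1.36). In egg against oocyte ER these were vegt.S (-0.29, -0.27, -0.26). In the change of the ER to cytosol difference these were gene47490 (-0.65, -0.84, -0.82), gene40286 (-0.58, -0.77, -0.75), gene50666 (-0.27, -0.47, -0.46), gene48962 (-0.45, -0.70, -0.66).

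For the change of the ER to cytosol difference 1 determinant was called higher and 1 lower, against 3 higher with DESeq2 and 4 higher and 2 lower with no filter. Over all transcripts 3226 were higher and 3823 lower, against 3550 and 3754 with DESeq2 and 3446 and 3441 with no filter. The replicate block gave 2 determinants higher, as did the block within stage, by adding gdf1.S (gene40286) at 0.39 in both, and changed no other call of a determinant. Over all transcripts 3457 were higher with the replicate block and 3721 with the block within stage. The totals of vegt.S and wnt11b.L turned to -0.035 and -0.13 (log2) with TPM over spike-in TPM. The cause of these was not tested.

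With each library left out in turn, trim36.S ran from -0.18 to 0.0092 in oocyte ER against cytosol and from -0.21 to 0.0058 in egg ER against cytosol. In egg against oocyte ER 0 to 1 determinants were lower, where 6114 to 7008 of all transcripts were called in either direction. In the change of the ER to cytosol difference 0 to 4 determinants were higher and 1 to 2 lower, with trim36.L from -0.19 to 0.023 and trim36.S from -0.15 to 0.058. Of all transcripts 6107 to 6896 were called in that change, in either direction. The log2 total of wnt11b.L ran from -0.038 to 0.29.

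Over all transcripts, calls with spike-in scaling were 7886 against 15570 in egg pellet against ER, 24174 against 10412 in egg ER against cytosol, 3265 against 9598 in egg against oocyte cytosol, 16099 against 7402 on the ER and 2647 against 11319 in the pellet, 4670 against 12231 for the change of the pellet to cytosol difference and 14990 against 7049 for that of the ER. With limma (0.01, 0.1) they were 24106, 23775 in egg ER against cytosol, 1040, 581 in egg against oocyte pellet, 4222, 6430 and 15587, 18113 for the changes, 8407 (0.1) in egg pellet against ER and 5813 (0.01) in egg against oocyte cytosol. Counts as low as 78 for gdf1.S and the division of reads between homeologs limit single values, and 3 libraries a group limit every exact test to p = 0.1.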
